A study of Mus musculus with 6 samples.

Results

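Aminoacyl-tRNA synthetases are the enzymes that attach each amino acid to its own transfer RNA, and 36 genes for them were found among the 45777 genes of the count table by taking protein coding genes whose symbol has the form of a synthetase name. RNA was sequenced from neutrophils that had been purified on a Percoll density gradient out of C57BL/6 marrow (genotype wild type) and then cultured for 24 h in the presence of the lipid mediator prostaglandin E2 (PGE2, 10 µM) or of DMSO, its vehicle. Each group held 3 libraries of polyadenylated RNA, which the series design calls biological replicates; the sources used here do not give the age and sex of the mice. Of the 36 genes 35 are described, and each of the 35 had at least 10 counts in at least 3 libraries, so all 35 were tested.

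Most amino acids have a pair of synthetase genes, one for the cytosolic enzyme, which serves the ribosomes that read nuclear transcripts, and one for the mitochondrial enzyme, which serves the ribosomes inside mitochondria. The symbol of the mitochondrial gene usually ends in 2. In animals several of the cytosolic enzymes are bound together in the multisynthetase complex, and the kinases of the integrated stress response act, through the transcription factor ATF4, on many of the cytosolic genes. Of the 35 genes, 18 encode cytosolic enzymes, 2 (Gars for glycine and Kars for lysine) encode enzymes used in both places, and 15 encode mitochondrial enzymes. Pars2 and Tarsl2, also synthetase genes, have symbols of another form. Neither passed the test, at log2 fold changes of 0.34 ± 0.35 (SE, adjusted p = 0.529) for Pars2 and 0.12 ± 0.36 (adjusted p = 0.851) for Tarsl2 in edgeR's test.

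With PGE2, 1 of the 35 synthetase genes was higher, 1 was lower and 33 did not pass the test. Aars, for alanine, was 1.54-fold higher. Dars, for aspartate, fell to 0.609 of the vehicle level. The test was edgeR's quasi-likelihood test over 15947 genes with Benjamini-Hochberg adjustment at 0.05, and every fold change and adjusted p below comes from it unless another test is named. Among all genes tested 10.1% were called higher and 14.3% lower (24.4% in either direction). The shares of 2.86% higher and 2.86% lower in the family were below that background in both directions in this unpaired fit. With libraries paired by replicate number, 14.3% of the family were higher, close to the 16.6% of all genes, and 2.86% lower, beside 18.9%. The median log2 fold change was 0.046 over the 35 genes and 0.038 over all genes tested. In the unpaired fit an unadjusted p under 0.05 was reached by 3 synthetase genes with higher and 3 with lower levels. Over all 15947 genes tested, 2803 with higher and 3099 with lower levels reached it. DESeq2 also called 1 synthetase gene higher and 1 lower, beside 1961 and 2665 of all genes.

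**Figure D1:**
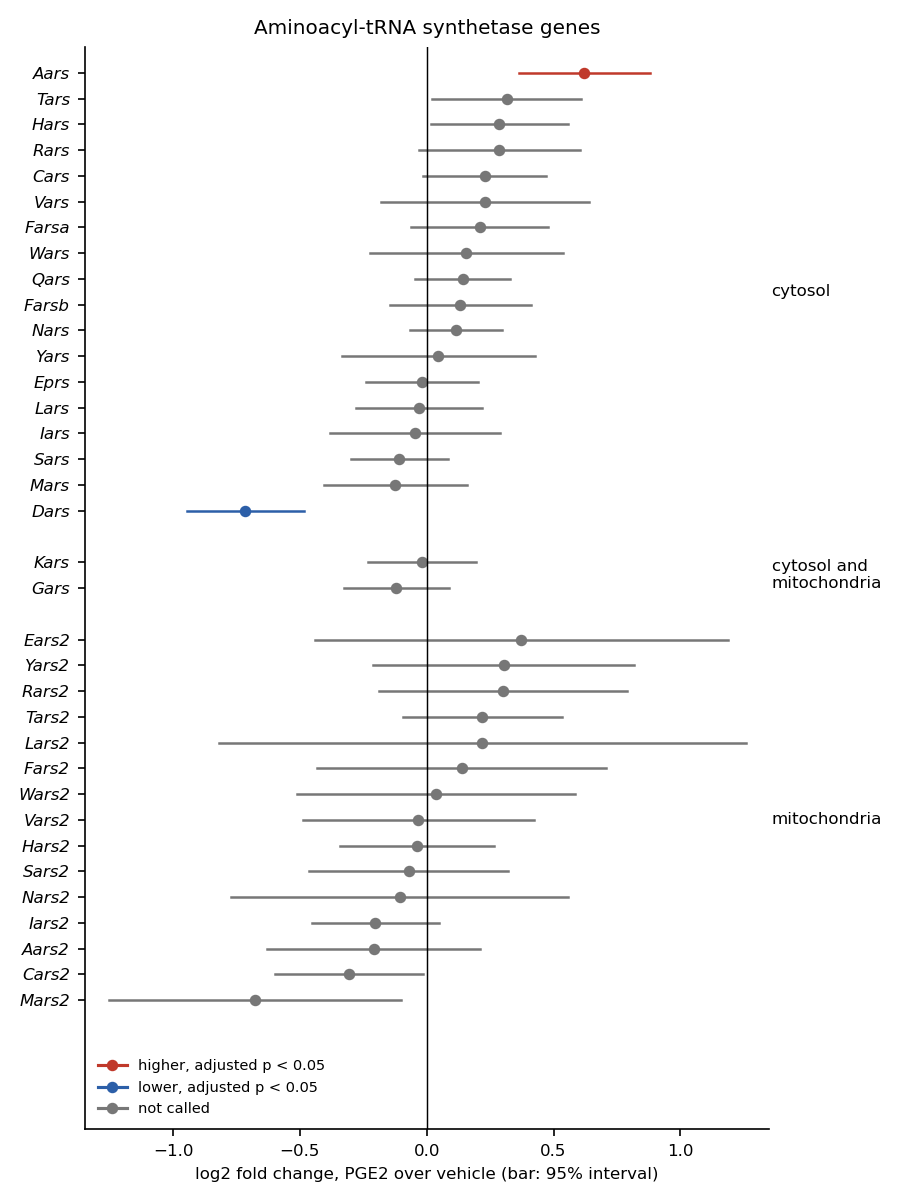
Log2 fold change (PGE2 over vehicle) of the 35 synthetase genes on the horizontal axis, with bars for the 95% interval and colours for the call, grouped by where the enzyme works. Aars lies to the right at 0.62, Dars lies to the left at -0.72, and the intervals are wider for most mitochondrial genes.

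The 3 libraries with PGE2 and the 3 with vehicle held 42091346 to 56238941 counts each, and synthetase genes took 0.0786 to 0.1004% of them. Of 9 neutrophil markers, 5 were lower with PGE2, and the 9 summed to between 70488 and 86384 CPM (counts scaled to library size) with PGE2 and between 72509 and 80887 CPM with vehicle. Of 7 B lineage markers, 4 were higher, with sums of 599 to 864 CPM against 385 to 518 CPM. The 7 erythroid markers in the table gave 0 calls (7 higher in a fit blocked by replicate number, 4 at an unadjusted p under 0.05, 0 by DESeq2), with sums of 15338 to 50861 CPM with PGE2 and 4272 to 19852 CPM with vehicle. Of 6 monocyte and macrophage markers 2 were lower (659 to 1009 CPM against 1027 to 1349 CPM), and of 4 eosinophil markers 3 were lower (56.2 to 89.0 CPM against 115 to 227 CPM). Markers of T and NK cells, basophils and mast cells, megakaryocytes, progenitors and cycling cells gave 0 calls in edgeR's test, with 3 at an unadjusted p under 0.05 and 1 by DESeq2. With 1 library left out, the counts were as low as 2 of 9 for neutrophil markers (without PGE2 replicate 2 or 3), 2 of 7 for B lineage markers (without vehicle replicate 1 or 2), 1 of 6 for monocyte and macrophage markers (without PGE2 replicate 2 or 3 or vehicle replicate 1 or 2) and 1 of 4 for eosinophil markers (without PGE2 replicate 2 or 3). Without PGE2 replicate 2, 1 progenitor marker was lower and 1 cycling marker higher. Blocked by replicate number, the fit called 1 megakaryocyte, 1 progenitor, 2 cycling and 7 B lineage markers higher. It called 6 neutrophil, 3 monocyte and macrophage and 3 eosinophil markers lower. No marker of these lists was at 0 counts in all 6 libraries. The part of these other cells in the synthetase results was not tested, and in bulk RNA fewer cells of a type and less RNA per cell cannot be told apart.

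Dars encodes the aspartyl-tRNA synthetase of the cytosol, a member of the multisynthetase complex. It lies at chr1:128363707-128417416 on the minus strand (coordinates here are those of mm10, as in the deposited tables), and no other gene in those tables overlaps it. Its level was 70.5, 61.0 and 69.6 CPM in the PGE2 libraries, against 115, 117 and 98.8 CPM in the vehicle libraries. The highest PGE2 library thus lay below the lowest vehicle library. The means were 67.0 ± 5.27 CPM with PGE2 and 110.0 ± 9.79 CPM with vehicle (SD, n = 3 each), a log2 fold change of -0.72 ± 0.10 (SE, adjusted p = 0.00188). Per length, Dars was the most abundant synthetase transcript with vehicle and came after Lars2 with PGE2, at 49.1 ± 7.96 TPM (the authors' measure of transcript abundance per length) with PGE2 and 86.8 ± 10.4 TPM with vehicle. It was called lower under all 15 alternative settings, between -0.83 and -0.62 on the log2 scale.

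Aars encodes the cytosolic alanyl-tRNA synthetase, at chr8:111027778-111055569 on the plus strand. Its level was 27.2, 34.1 and 29.9 CPM in the PGE2 libraries and 18.8, 19.8 and 20.7 CPM in the vehicle libraries. Each PGE2 library was above every vehicle library. The means were 30.4 ± 3.44 CPM with PGE2 and 19.8 ± 0.940 CPM with vehicle (SD, n = 3 each), and the log2 fold change was 0.62 ± 0.11 (SE, adjusted p = 0.0054). It was called higher under all 15 alternative settings, at 0.50 to 0.71. Its span overlaps that of Ddx19b, a gene on the other strand, by 3974 bases, with 0 exonic bases in common in GENCODE M21. The Aars to Aars2 ratio on TPM was 8.37, 12.2 and 4.12 with PGE2 and 3.16, 2.67 and 2.39 with vehicle, so it was higher in every PGE2 library. The same held for Cars to Cars2 (1.97 to 2.16 against 1.25 to 1.79) and Vars to Vars2 (9.65 to 11.8 against 8.60 to 9.21). Eprs to Ears2 was lower in every PGE2 library (10.1 to 13.8 against 15.8 to 19.2), and the other pairs of a cytosolic and a mitochondrial gene overlapped. Aars2, the mitochondrial alanyl enzyme, was at 2.0 ± 1.19 TPM with PGE2 and 3.41 ± 0.517 TPM with vehicle (SD, n = 3 each), and its log2 fold change from counts was -0.21 ± 0.18 (adjusted p = 0.454).

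**Figure D2:**
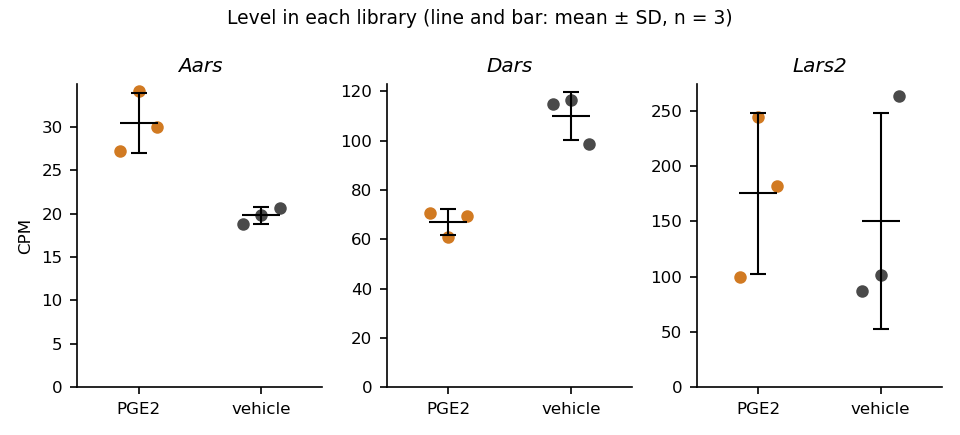
Level of Aars, Dars and Lars2 in CPM on the vertical axis of each panel, which starts at 0, with a point for each library and lines for the mean ± SD of 3 libraries. The groups lie apart for Aars and Dars, while the Lars2 points spread from 87.4 to 263 CPM and overlap.

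Among the other 16 genes of the cytosol alone, none passed the test (2 had an unadjusted p under 0.05 and DESeq2 called 0), and their log2 fold changes ran from -0.12 for Mars, for methionine, to 0.31 for Tars, for threonine. They were above 0 in 11 genes (Tars, Hars, Rars, Cars, Vars, Farsa, Wars, Qars, Farsb, Nars and Yars) and below 0 in 5 (Eprs, Lars, Iars, Sars and Mars). The nearest to the threshold were Tars and Hars, for histidine. Tars was at 19.1, 17.9 and 19.7 CPM with PGE2 and at 17.6, 13.6 and 14.3 CPM with vehicle (log2 fold change 0.31 ± 0.13, adjusted p = 0.112). Hars was at 24.0, 20.1 and 23.5 CPM with PGE2 and at 19.8, 16.7 and 18.8 CPM with vehicle (0.29 ± 0.12, adjusted p = 0.115). In both genes the groups did not overlap on CPM, though in each the lowest PGE2 library came close to the highest vehicle library. On TPM the groups overlapped in both genes. Without vehicle replicate 1, Tars was also called, which made 2 cytosolic genes higher.

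Libraries that carry the same replicate number deviated together from their group means, with correlations of 0.26, 0.17 and 0.19, and blocking on that number in edgeR called 5 synthetase genes higher and 1 lower. The additional 4 were Tars (adjusted p = 0.0457 in the blocked fit), Hars (0.0355), Rars for arginine (0.0283) and Vars for valine (0.0317). In that fit 16.6% of all genes were called higher and 18.9% lower, beside 14.3% and 2.86% of the family. Vars was at 46.6, 50.9 and 67.9 CPM with PGE2 and at 39.7, 43.9 and 57.5 CPM with vehicle. The groups overlap, and each PGE2 library was above the vehicle library of its own number. Rars was at 32.2, 26.9 and 25.1 CPM with PGE2 and at 26.4, 22.1 and 20.5 CPM with vehicle, again higher within each number. The size of the blocked log2 fold changes was 0.23 for Vars and 0.29 for Rars.

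Read by role, the 8 genes of the multisynthetase complex (Dars, Eprs, Iars, Kars, Lars, Mars, Qars and Rars) had 0 higher and 1 lower, Dars; their median log2 fold change was -0.025. No gene of the complex reached an unadjusted p under 0.05 in the higher direction, and DESeq2 called 0 higher, while the replicate block called 1, Rars. Eprs, the joined glutamyl and prolyl enzyme, was at 22.7 ± 1.05 CPM with PGE2 and 23.0 ± 1.19 CPM with vehicle (SD, n = 3 each). The 12 genes with a cytosolic enzyme outside the complex had 1 higher, Aars, and 0 lower, with a median of 0.18, and 10 of the 12 fold changes were above 0. With the replicate block 4 of them were higher: Aars, Hars, Tars and Vars. For lower calls in these 12, 0 had an unadjusted p under 0.05 and DESeq2 made 0 calls. Without the block, 12.5% of the complex were lower, beside 14.3% of all genes tested, and 8.33% outside it were higher, beside 10.1%. With the block, 12.5% of the complex and 33.3% outside it were higher, beside 16.6% of all genes.

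Of the 3 scaffold proteins of the complex, Aimp1 was higher, at 24.8, 25.9 and 23.1 CPM with PGE2 and 17, 16.5 and 19.0 CPM with vehicle (log2 fold change 0.49 ± 0.11, adjusted p = 0.0116). Its groups did not overlap, and it did not pass without vehicle replicate 2. Eef1e1 was at 5.13 ± 0.744 CPM against 3.67 ± 0.906 CPM (SD, n = 3 each, adjusted p = 0.153) and Aimp2 at 2.79 ± 0.332 CPM against 3.31 ± 0.312 CPM (adjusted p = 0.409). Among 6 trans-editing and deacylation factors, which remove wrongly attached amino acids, Dtd1 was higher, at 12.4 ± 0.737 CPM with PGE2 and 9.38 ± 0.613 CPM with vehicle (log2 fold change 0.40 ± 0.12, adjusted p = 0.0412). With a library left out this list had 0 genes higher in every fit other than that without PGE2 replicate 1, and it had 2 with the replicate block.

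Nars, the cytosolic asparaginyl enzyme and a relative of Dars in sequence, was at 69.2, 64.7 and 62.5 CPM with PGE2 and at 60.6, 60.7 and 60.0 CPM with vehicle, a log2 fold change of 0.12 ± 0.08 (adjusted p = 0.333). Its groups did not overlap on CPM, while on TPM they did, at 40.2 ± 4.42 TPM against 39.99 ± 2.70 TPM (SD, n = 3 each). Qars, for glutamine, was as abundant, at 41.0 ± 2.38 TPM against 40.3 ± 4.10 TPM. Farsa and Farsb encode the 2 subunits of the cytosolic phenylalanyl enzyme. Their TPM ratio was 2.19 ± 0.159 with PGE2 and 2.08 ± 0.163 with vehicle (SD, n = 3 each), a difference smaller than the spread between libraries. By structural class, the 18 class I genes had 0 calls in either direction (0 higher and 2 lower at an unadjusted p under 0.05, 0 by DESeq2), and the 16 class II genes had 1 higher and 1 lower; Eprs holds both classes. With the replicate block 2 class I genes, Rars and Vars, and 3 class II genes were higher.

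Of the 15 mitochondrial genes, 0 were called higher and 0 lower in edgeR's test or by DESeq2, and the median log2 fold change was -0.033, with 7 values above 0 and 8 below. An unadjusted p under 0.05 was reached by 0 genes with higher levels and by 2 with lower ones, Cars2 and Mars2. Mars2, the mitochondrial methionyl enzyme, was at 2.08, 1.45 and 1.84 CPM with PGE2 and at 3.32, 3.01 and 2.28 CPM with vehicle (log2 fold change -0.68 ± 0.25, adjusted p = 0.0856). Cars2, the mitochondrial cysteinyl enzyme, was at 7.37, 8.41 and 8.03 CPM with PGE2 and at 9.75, 9.24 and 10.5 CPM with vehicle (-0.31 ± 0.13, adjusted p = 0.119). Both had every PGE2 library below every vehicle library, on CPM and on TPM. The other 6 values below 0 ran from -0.21 for Aars2 to -0.03 for Vars2 and belonged also to Iars2, Nars2, Sars2 and Hars2. The 7 values above 0 ran from 0.04 for Wars2 to 0.37 for Ears2 and belonged also to Yars2, Rars2, Tars2, Lars2 and Fars2.

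Several of these genes share exonic bases with a neighbour on the other strand in GENCODE M21, so that without strand their reads cannot be told apart there. Hars and Hars2 share 195 bases, Mars shares 68 with Ddit3, Farsb shares 248 with Sgpp2, and Iars2 shares 2034, or 22.9% of its exonic bases, with Rab3gap2. None of these 5 synthetase genes was called without the replicate block (1 higher at an unadjusted p under 0.05, Hars, and 0 by DESeq2), and Hars was called with it.

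What the 33 genes without a call could still hold was limited by the width of their intervals. The 95% interval of the fold change lay within 1.5-fold in both directions for 20 of them. That was so for 15 of the 18 cytosolic or shared genes, whose intervals had a median distance of 0.27 from estimate to bound on the log2 scale. It was so for 5 of the 15 mitochondrial genes, whose median distance was 0.49. Kars, for example, had an interval from -0.23 to 0.19, and Nars2, the mitochondrial asparaginyl enzyme with 62 to 111 counts per library, had one from -0.77 to 0.56.

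Counted by separation of the libraries alone, 7 synthetase genes had all PGE2 libraries above all vehicle libraries on CPM, 4 had them all below, and 24 overlapped. Over all genes tested 20.5% lay above, 21.8% lay below and 42.3% did either. On TPM, 1 lay above (Aars), 6 below and 28 overlapped, beside 13.3% above and 24.5% below over all genes tested. The 6 below on TPM were Cars2, Dars, Gars, Iars2, Mars2 and Sars. By limma on log2(TPM + 1), 1 synthetase gene was called higher, Aars, and 1 lower, Dars, beside 7.66% and 17.9% of all genes tested there. The scale thus moved the family: its median log2 fold change was 0.046 from TMM-scaled counts, 0.14 from counts scaled by library totals alone and -0.083 on log2(TPM + 1). All genes tested moved with it, with medians of 0.038, 0.13 and -0.064.

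Levels per length spanned a wide range in both groups. With PGE2 the 20 cytosolic or shared genes ran from 5.09 TPM for Iars, for isoleucine, to 49.1 TPM for Dars, with a median of 15.1 TPM. With vehicle they ran from 5.62 TPM for Iars to 86.8 TPM for Dars, with a median of 15.2 TPM. The 14 mitochondrial genes other than Lars2 ran from 0.546 TPM (Wars2, tryptophan) to 11.2 TPM (Hars2, histidine) with PGE2 and from 0.444 TPM (Ears2, glutamate) to 12.6 TPM (Hars2) with vehicle, with medians of 3.45 TPM with PGE2 and 3.597 TPM with vehicle. The mitochondrial transcripts were therefore scarcer as a set, with overlap between the 2 sets. Summed over the 34 genes other than Lars2, the family held 718, 695 and 748 CPM with PGE2 and 721, 723 and 732 CPM with vehicle, and the groups overlapped.

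**Figure D3:**
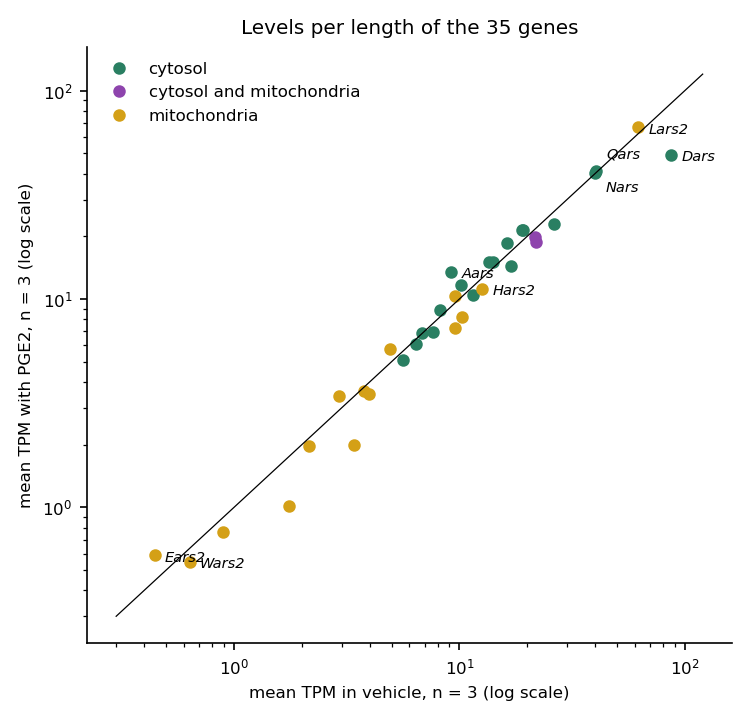
Mean TPM of each of the 35 genes with PGE2 (vertical) against vehicle (horizontal), both on log axes, n = 3 libraries each, with the line of equal levels. Most points follow the line, Dars lies below it at 49.1 against 86.8 TPM, and Aars lies above it.

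Lars2, the mitochondrial leucyl enzyme, stood out from the other mitochondrial genes in level and in spread. It had 99.6, 244 and 182 CPM with PGE2 and 87.4, 101 and 263 CPM with vehicle, which is 12.2, 26.0 and 19.6% of the counts of the 35 genes in the PGE2 libraries and 10.8, 12.3 and 26.4% in the vehicle libraries. The groups overlapped (log2 fold change 0.22 ± 0.45, adjusted p = 0.771), and each group held low and high libraries. Its counts went with those of a ribosomal RNA feature in the same tables, Rn18s-rs5. Lars2 had 5.76, 7.15 and 6.05 counts per 100 Rn18s-rs5 counts with PGE2 and 6.07, 7.05 and 6.99 with vehicle. Set against Gm15564, it had 324, 410 and 418 counts per 100 with PGE2 and 394, 412 and 399 with vehicle. Both of these ratios varied less between libraries than the CPM did. The ratio to mt-Rnr2, a ribosomal RNA of mitochondria, did not, with 5.66, 10.02 and 10.3 Lars2 counts per 100 with PGE2 and 8.37, 7.64 and 19.7 with vehicle. A Lars2 transcript of 3894 bases holds 72 bases, at positions 3278 to 3349, that match Gm15564 at 98.6% identity. All 3 features were picked with their values in view, and the part of ribosomal RNA reads in the Lars2 count was not tested.

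**Figure D4:**
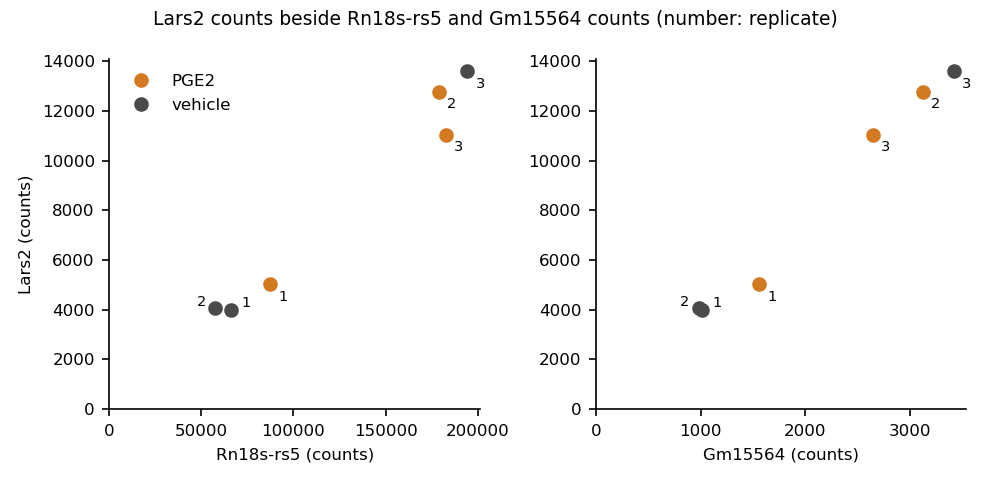
Lars2 counts (vertical) against counts of Rn18s-rs5 (left) and Gm15564 (right), both in counts, with a numbered point for each library. PGE2 replicates 2 and 3 and vehicle replicate 3 lie at the upper right and the other 3 libraries at the lower left, in both panels.

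A motif of the amino acid response, to which ATF4 binds with a partner, was looked for in the 250 bases before the start sites of RefSeq (GRCm38.p6), which held 28 promoters of 27 of the 35 genes. The letters were TGATGNAA on either strand. They occurred in 3 of the 28 promoters (10.7%), beside 3.17% of 21296 promoters of protein coding genes. The 3 belong to Aars, which was called higher, and to Gars and Tars, which were not called. The matches of Gars and Tars are shown, and that of Aars is not reported here. Tars came nearest to the threshold among the uncalled cytosolic genes. Gars had every PGE2 library below every vehicle library on TPM. Each is given on the gene's strand with the match in capitals, from chr6:55037960-55037989 (plus) for Gars and chr15:11399655-11399684 (minus) for Tars.
Gars: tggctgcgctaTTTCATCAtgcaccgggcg
Tars: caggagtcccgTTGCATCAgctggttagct
The match begins 30 bases before the start in Gars and 15 in Tars. Gars, which carries a match, was at 28.5, 25.9 and 27.8 CPM with PGE2 and at 31.0, 29.4 and 29.0 CPM with vehicle (log2 fold change -0.12 ± 0.09, adjusted p = 0.384). A match is only a description of the letters.

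The full cyclic AMP response element TGACGTCA occurred in 0 of the 28 promoters and in 1.92% of all. Its shorter core TGACG (or CGTCA), which any full element contains, occurred in 10 promoters of 9 genes (35.7%), beside 20.2% of all promoters, in Aars2, Eprs, Farsb, Mars, Nars2, Sars2, Tars, Wars2 and Yars. None of these 9 genes was called without the replicate block, and Tars was called with it. The E-box CACGTG occurred in 3 promoters (10.7%), of Aars, Farsb and Iars, beside 6.63% of all. Dars was not among the genes in which a motif was found. Only 27 of the 35 genes had a promoter to search.

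ATF4 acts on many cytosolic synthetase genes, and 12 of the 35 were listed as its targets from general knowledge. Of these 12, Aars was higher (Aars and Tars with the replicate block) and 0 were lower (0 at an unadjusted p under 0.05, 0 by DESeq2), and the median log2 fold change was 0.014. The share higher was 8.33%, beside 10.1% of all genes tested. With the block it was 16.7%, beside 16.6%. The lower calls of all genes made up 14.3% without the block. Atf4 itself was at 265, 297 and 261 CPM with PGE2 and at 158, 167 and 158 CPM with vehicle. Its groups did not overlap, and the log2 fold change was 0.77 ± 0.08 (SE, adjusted p = 0.000689). Of 31 tested genes listed as ATF4 and its targets outside the synthetases, 4 were higher and 1 lower (9 and 3 with the replicate block), with a median of 0.16. Without the block the shares were 12.9% higher and 3.23% lower, beside 10.1% and 14.3% of all genes tested. The 4 were Atf4, Slc3a2 and Slc7a11, the chains of the cystine and glutamate exchanger, and Cebpb, a transcription factor. The 1 lower was Eif4ebp1, a repressor of translation initiation, at 53.2 ± 10.4 CPM with PGE2 and 77.2 ± 5.57 CPM with vehicle (SD, n = 3 each, log2 fold change -0.54 ± 0.14, adjusted p = 0.0291). It did not pass without PGE2 replicate 2, vehicle replicate 2 or vehicle replicate 3. Asns, the asparagine synthetase that is a widely used ATF4 target, was at 4.98, 6.94 and 4.28 CPM with PGE2 and at 6.55, 5.48 and 5.97 CPM with vehicle, with overlapping groups (-0.15, adjusted p = 0.645; chosen after its values were seen).

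Of 14 kinases and regulators of the integrated stress response, 1 was higher and 1 lower (3 and 3 with the replicate block). Eif2ak3, which encodes the kinase PERK, was lower, at 107, 98.8 and 102 CPM with PGE2 and 173, 181 and 184 CPM with vehicle (log2 fold change -0.81 ± 0.08, adjusted p = 0.000461). Ppp1r15a, which encodes the GADD34 subunit of the phosphatase of eIF2, was higher, at 367, 713 and 208 CPM with PGE2 and 94.0, 180 and 83.5 CPM with vehicle. Its groups did not overlap and its spread was wide (1.85 ± 0.46, adjusted p = 0.0205). It did not pass without PGE2 replicate 2, vehicle replicate 1 or vehicle replicate 3. With a library left out, 2 genes of this list were higher without PGE2 replicate 1, and 2 were lower without PGE2 replicate 1 or PGE2 replicate 3.

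Amino acid transporters moved in both directions, 4 of 21 tested higher and 4 lower (9 and 4 with the replicate block). Slc3a2 was at 236, 316 and 255 CPM with PGE2 and at 80.3, 112 and 88.2 CPM with vehicle, a log2 fold change of 1.52 ± 0.16 (SE, adjusted p = 0.000571). Slc7a11 was at 888 ± 110 CPM with PGE2 and 433 ± 60.5 CPM with vehicle (SD, n = 3 each, 1.03 ± 0.13, adjusted p = 0.00133). Slc15a3, a transporter of peptides and histidine in lysosomes, was also higher (1.13 ± 0.14, adjusted p = 0.00107). Slc6a6, the taurine transporter, was lower, at 535 ± 53.5 CPM against 893 ± 30.8 CPM (-0.74 ± 0.10, adjusted p = 0.00134). The log2 fold changes of Slc3a2, Slc7a11 and Slc15a3 were larger than those of the synthetase genes, which ran from -0.72 to 0.62. These transporters were named for having the smallest adjusted p in their list. Of the 21 tested transporters 13 were not called, and their median log2 fold change was 0.095, beside 0.046 for the synthetase genes. Slc3a2 and Slc7a11 stand in both this list and that of ATF4 targets.

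Synthetases charge tRNA that other enzymes have transcribed, trimmed and exported. Of 21 genes of tRNA maturation and export, 6 were higher and 1 lower (9 and 1 with the block). Among them were Ssb, the La protein that binds the ends of new tRNA (0.56 ± 0.09, adjusted p = 0.00282), and Pop4, a subunit of RNase P (0.77 ± 0.14, adjusted p = 0.00604). Rpp25, another such subunit, had 21, 19 and 69 counts with PGE2 and 0 in each vehicle library, and it was among the 6. Elac1, an enzyme that trims tRNA ends, was lower, at 15 ± 2.82 CPM against 26.8 ± 3.03 CPM (SD, n = 3 each, -0.84 ± 0.16, adjusted p = 0.00697). Of 20 genes of tRNA transcription by RNA polymerase III, 4 were higher and 1 lower. Gtf3c6, a subunit of the factor TFIIIC, was at 19.1 ± 0.956 CPM against 12.1 ± 0.710 CPM (0.66 ± 0.11, adjusted p = 0.00346), and Gtf3c1, its largest subunit, was lower (-0.33 ± 0.08, adjusted p = 0.02). With any 1 of the 6 libraries left out, this list had 1 or 2 genes higher and 0 lower.

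**Figure D5:**
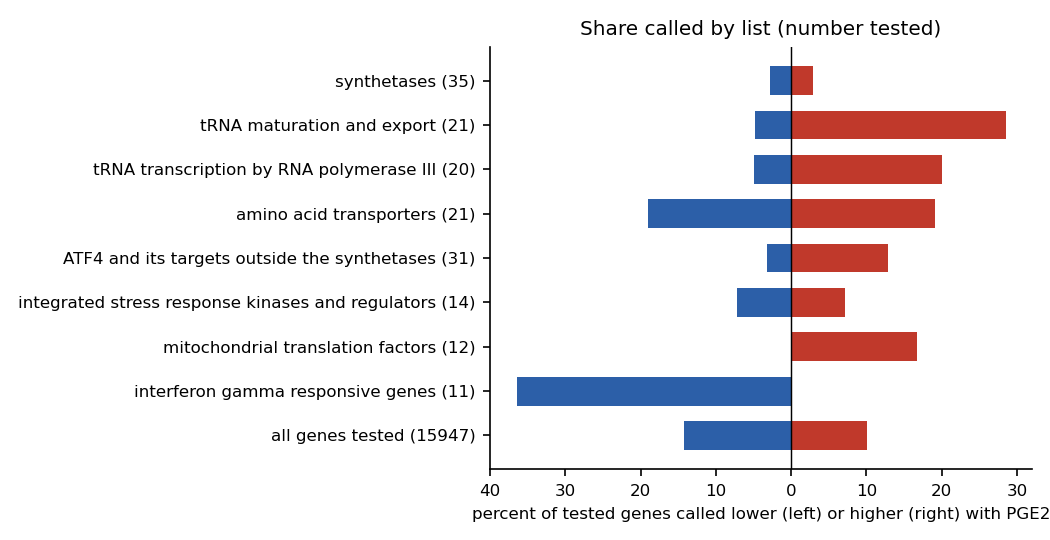
Percent of tested genes called lower (bars to the left of 0) and higher (to the right) with PGE2, for the 35 synthetase genes, for related lists of more than 10 tested genes and for all genes tested. The synthetase bars, 2.86% higher and 2.86% lower, are shorter than those of all genes, 10.1% and 14.3%. All shares are from the fit not blocked by replicate number.

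On the mitochondrial side, 2 of 12 translation factors were higher and 0 lower (0 at an unadjusted p under 0.05, 0 by DESeq2). Slirp, which protects mitochondrial messenger RNA, was at 8.35 ± 1.12 CPM with PGE2 and 4.15 ± 0.630 CPM with vehicle (SD, n = 3 each, log2 fold change 1.01 ± 0.18, adjusted p = 0.00519). Tsfm, an elongation factor, was at 3.84 ± 0.934 CPM against 2.05 ± 0.412 CPM (0.91 ± 0.26, adjusted p = 0.0374). The count was 1 in every fit that left out a library, other than that without PGE2 replicate 2. A further list held 6 enzymes that finish glutaminyl-tRNA or formylmethionyl-tRNA in mitochondria, or selenocysteinyl-tRNA, which is not made there. Of these 6, 0 were called (1 higher at an unadjusted p under 0.05, 0 by DESeq2), and 1 was higher without PGE2 replicate 1. Pstk, the kinase of the selenocysteine route, was nearest, at 2.39 ± 0.703 CPM against 1.38 ± 0.101 CPM (0.79 ± 0.28, adjusted p = 0.0771).

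Wars, the cytosolic tryptophanyl enzyme, is known to be induced by interferon gamma. It was at 14.8, 13.7 and 15.3 CPM with PGE2 and at 9.97, 14.6 and 14.8 CPM with vehicle, with overlapping groups and a low value in vehicle replicate 1 (log2 fold change 0.16 ± 0.17, adjusted p = 0.546). Of 11 tested genes listed as responsive to interferon gamma, 4 were lower and 0 higher (7 and 0 with the replicate block; 0 higher at an unadjusted p under 0.05 and 0 by DESeq2). Among the 4 was Tap1, a subunit of the peptide transporter of antigen processing, at 72.3 ± 7.77 CPM with PGE2 and 108 ± 14.4 CPM with vehicle (SD, n = 3 each, -0.58 ± 0.12, adjusted p = 0.0113). Cxcl10, a chemokine, was also lower, at 3.82 ± 1.57 CPM against 10.9 ± 2.71 CPM (-1.52 ± 0.31, adjusted p = 0.0089). The 95% interval of the Wars log2 fold change ran from -0.23 to 0.54.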

How the data were processed

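The labels' protocols describe TRIzol extraction and a TruSeq mRNA kit, named both as standard and as stranded. The submitters' processing notes list the tools Bowtie2, STAR, StringTie (2.1.3b), DESeq2 and RSEM and the build mm10; the sources used here do not say which tool made which value. The authors deposited whole-number estimated counts per gene, called normalized but with totals that differ between libraries, which were used as unnormalised counts. The authors' deposited TPM were used for levels per length and as an alternative. Of the series table, 18 columns of 6 other libraries were not used.

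The titles gave each library its group and replicate number. Estimated counts were rounded, genes with at least 10 counts in at least 3 libraries were kept (15947 of 45777), and edgeR 4.0.16's two-sided quasi-likelihood test with TMM scaling was run in R 4.3.3, without covariates. SEs of log2 fold changes come from that test. The biological coefficient of variation was 22.4%. The test was checked on simulated data first. Same-numbered libraries correlated at 0.26, 0.17 and 0.19, and a fit blocked on the numbers, which come from the titles, was run as an alternative. The main test does not use this pairing. What a number stands for is not stated in the labels. Replicates differed by more than sampling noise, and p-values set the difference between groups against the spread between these libraries as the model estimates it.

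The members and lists were chosen with earlier results of these data known. The rule found 36 genes; 1 of them is not reported here and is in no count, median or sum of the family, and the other 35 are named or counted. From each related list the 4 genes with the smallest adjusted p, and up to 2 in the rarer direction, could be named. Alternatives were leaving out each library, the replicate block, size factors and the Wald test of DESeq2 1.42.0, library totals alone, no filter or 50 counts, and limma 3.58.1 on log2(TPM + 1), on log2(TPM + 0.1) and without the filter of TPM of at least 1 in 3 libraries. Exon overlaps came from GENCODE M21 and promoters from RefSeq GRCm38.p6. With no count of molecules, the intervals cover the spread between libraries as the model sees it.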

Additional observations from a re-analysis of the deposited data

How the results depend on the processing

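The replicate block gave 5 synthetase genes higher, all 5 of them cytosolic, and 2648 genes higher over all, and changed no other of the main counts by over 1.5 times. On the authors' TPM with limma (log2(TPM + 1), the same without a filter, and log2(TPM + 0.1)), 967, 670 and 953 genes were higher over all. The median log2 fold change of the family was -0.083, -0.083 and -0.10 on those scales and 0.14 with library totals alone. Library totals alone moved the share of calls that were higher to 55.5%, beside 41.5% with TMM and 30.1% on log2(TPM + 0.1).

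With 1 library left out, 1 to 2 synthetase genes were higher, each cytosolic (2 without vehicle replicate 1), 1005 to 1541 genes were higher over all (fewest without vehicle replicate 2 and PGE2 replicate 2), and the median ran from 9.95e-05 without vehicle replicate 1 to 0.15 without PGE2 replicate 1. The count of genes lower over all ran from 1627 to 2262.

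Signs turned only in genes that were not called. With library totals alone the log2 fold changes were 0.074 for Eprs, 0.055 for Hars2, 0.053 for Iars, 0.071 for Kars, 0.064 for Lars, 0.027 for Sars2 and 0.061 for Vars2. On TPM they were -0.13, -0.13 and -0.18 for Fars2 and -0.077, -0.077 and -0.089 for Yars, and -0.083 for Wars2 without a filter. With 1 library left out, the range crossed 0 for Eprs (-0.036 to 0.028), Fars2 (-0.11 to 0.34), Hars2 (-0.17 to 0.030), Iars (-0.13 to 0.090), Kars (-0.048 to 0.035), Lars (-0.074 to 0.054), Lars2 (-0.094 to 0.89), Nars2 (-0.28 to 0.047), Vars2 (-0.13 to 0.15), Wars2 (-0.093 to 0.18) and Yars (-0.059 to 0.17). The cause was not tested. Of 519 values of single synthetase genes under an alternative, 481 kept both direction and call. The part of depth in the width of the intervals was not tested.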
